A study of Homo sapiens with 12 samples.

Results

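KDM3A knockout HCT116 cells were compared with wild-type HCT116 cells after serum had been returned to starved cultures. HCT116 is an established human colorectal carcinoma line. Wild-type (WT) cells and cells with KDM3A knocked out (KO) had been kept without serum for 24 h and then received fetal bovine serum; this state is called refed here, and the time from serum addition to harvest is not given. Mock cells, grown in normal medium, and starved cells, kept without serum and not refed, were available for both genotypes and are used here as reference states. By the labels there are 12 samples, 2 per group in 6 groups, and the labels do not say how many knockout clones were used. The deposited values are 1 column per group with no replicate number, so the comparison is 1 value against 1 value per gene. It has no spread between replicates, no test and no p-value, and "higher" and "lower" describe those 2 values only. The unit is FPKM, fragments scaled by transcript length and by the number of mapped fragments, so that levels of different genes can be compared. A gene was included when it reached 1 FPKM in at least one of the refed columns, which gave 12711 of 26372 genes. The difference is the log2 ratio of (FPKM + 1), KO over WT, and adding 1 makes the ratio of weakly expressed genes smaller than the ratio of their FPKM.

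KDM3A (JMJD1A) is a Jumonji-type dioxygenase that removes methyl groups from mono- and dimethylated lysine 9 of histone H3, a modification found at repressed genes. It uses iron and oxygen and is itself induced by low oxygen. In colorectal cancer cells it has been studied as a partner of the Hippo pathway effector YAP, a co-activator that binds TEAD transcription factors and drives genes such as CTGF and CYR61. Serum growth factors and lysophospholipids activate ERK, SRF with its MRTF co-activators, and YAP, and induce a wave of immediate early genes within the first hours.

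KDM3A itself was at 41.3, 17.8 and 19.8 FPKM in WT mock, starved and refed cells. In KO it was at 3.15, 3.01 and 3.59 FPKM in the same states. The refed KO level was 18.2% of the WT level (log2 -2.18), so the labelled genotype and the KDM3A level pointed the same way in every state. Whether the remaining transcript contains the altered part of the gene cannot be read from 1 FPKM value per gene. Of 10 H3K9 demethylases measured, KDM3A was the single one past 2-fold: KDM4C was at 4.17 FPKM in refed WT and 6.36 in refed KO, and KDM1A (LSD1) at 39.7 and 47.2. Among 11 H3K9 methyltransferases and HP1-related genes, none differed 2-fold in either direction and the median log2 ratio was 0.15. Of all genes measured 3.61% were 2-fold higher and 1.6% lower, so lists this short are likely to have few or none past 2-fold. EHMT2 (G9a), which writes the mark that KDM3A removes, was at 21.2 FPKM in refed WT and 24.7 in refed KO.

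Several properties of the columns bear on what follows. Both refed columns had the markers of colorectal epithelial cells: EPCAM was at 145 FPKM in WT and 179 in KO, and KRT18 at 495 and 1212. VIL1, a brush-border gene, was close to 0 in both. Of 16 endothelial markers, 3 reached 1 FPKM in a refed column, the summed level was 50.4 FPKM in refed WT and 72.9 in refed KO, and most of it was EGFL7 (44.2 and 65.1). VWF, PECAM1 and CDH5 were at 0.0949, 0.0388 and 0.0622 FPKM in refed WT. WT mock stood apart, with 75.9, 15.5 and 25.8 FPKM of the same 3 genes and an endothelial sum of 296.6 FPKM, and results that use the mock columns are therefore also given without them. Fibroblast markers summed to 32.0 and 50.8 FPKM in refed WT and refed KO, almost all of it COL1A1, leukocyte markers to 5.37 and 17.9 (mostly CD68, a lysosomal gene), and erythroid markers to 3.12 and 2.97. The refed columns also differed at low levels. In refed WT 4301 genes were listed at 0 and in refed KO 7075, and 293 of 399 olfactory receptor genes, which colon cells are not known to use, were above 0 in refed WT against 38 in refed KO. The starved columns differed in the same way, with 4300 genes at 0 in WT and 7113 in KO. In starved cells 270 olfactory receptor genes were above 0 in WT and 40 in KO. The part of these low values in the differences, and in what refed and starved cells share, was not tested.

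In refed cells 459 genes (3.61% of 12711) were at least 2-fold higher in KO and 203 (1.6%) at least 2-fold lower. At 4-fold, 90 were higher and 66 lower. Short RNAs, 294 of the genes measured, made up 87 of the 459 and 54 of the 203. Leaving them out gave 372 and 149 at 2-fold. EEF1A1, whose listed 0 in refed KO may be a failed estimate, is counted among the 203. On the deposited scale the median gene had a log2 ratio of 0.24. After median-ratio rescaling of the columns the split was 300 higher and 252 lower, and after upper-quartile rescaling it was 282 and 263. The share of higher genes depended on level: it was 2.58% among genes at 1 to 5 FPKM in the higher column and 6.26% above 100 FPKM, while the median moved from 0.15 to 0.40. Just inside the 2-fold limit lay AUH (12.7 FPKM in WT, 26.4 in KO) and TNFAIP3 (6.28 and 2.63), and just outside it CITED2 (32.4 and 65.9) and TIAM1 (7.85 and 3.44).

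**Figure D1:**
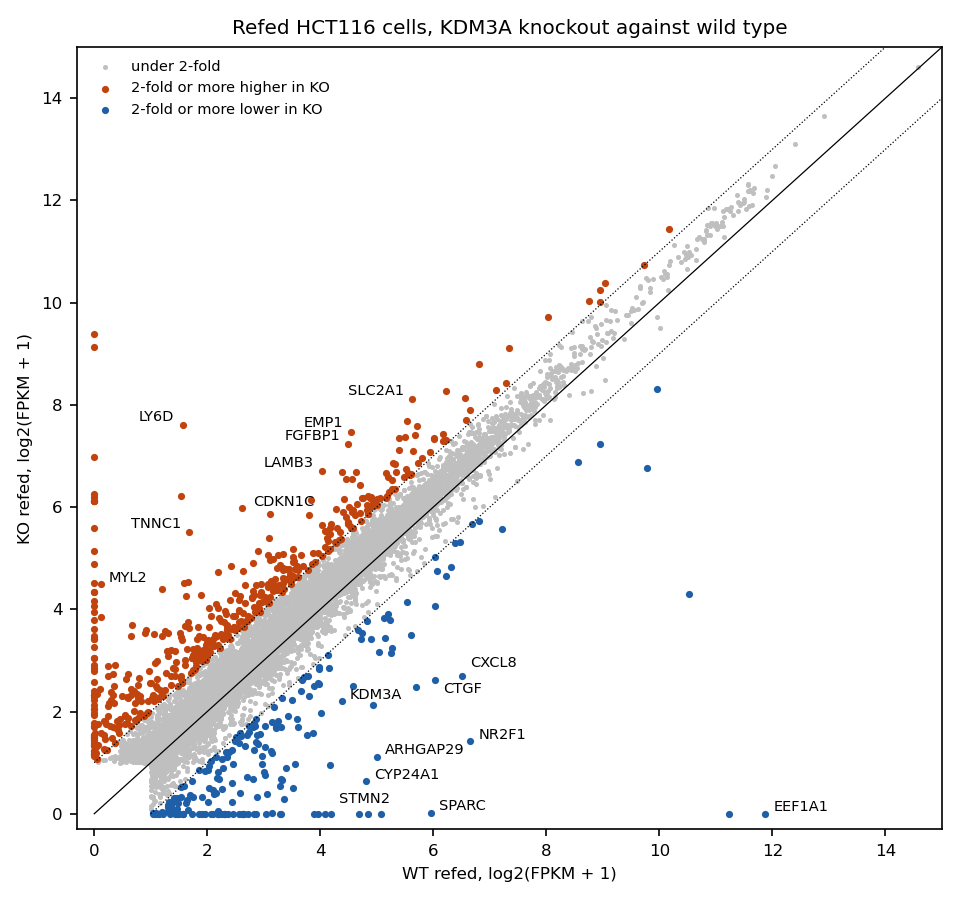
Each point is 1 of the 12711 genes, with log2(FPKM + 1) in refed WT on the x axis and in refed KO on the y axis; the solid line is equality and the dotted lines are 2-fold. Points above the upper dotted line are the 459 genes higher in KO and points under the lower one the 203 lower in KO; LY6D and SPARC lie far from the line, and EEF1A1 is listed at 0 in KO.

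Among the genes at 5 FPKM or more in the higher column, LY6D had the largest ratio. LY6D, a GPI-anchored marker of squamous epithelia, was at 1.30, 2.35 and 1.95 FPKM in WT mock, starved and refed cells and at 137, 134 and 194 in KO (refed log2 6.04). EMP1, an epithelial membrane protein, was at 22.4 FPKM in refed WT and 177 in refed KO (2.92). For both genes every KO column lay above every WT column. MYL2 and TNNC1, components of the striated muscle sarcomere, had 0.0832 and 2.21 FPKM in refed WT and 21.6 and 44.6 in refed KO, although the other 6 measured genes of the muscle list stayed under 2-fold. FGFBP1, a carrier that releases fibroblast growth factors from the matrix, was at 21.6 and 149 FPKM. It was also higher in refed than in starved cells of both genotypes, at 6.83 starved and 21.6 refed in WT and at 38 and 149 in KO. DLX2, a homeobox gene, was at 2.01 and 21.7 FPKM, and DHRS2, a mitochondrial dehydrogenase gene, at 2.14 and 22.2.

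In the other direction SPARC had the lowest ratio among genes above 0 in both columns. SPARC, a collagen-binding matrix protein, was at 83.3, 62.9 and 60.8 FPKM in WT mock, starved and refed cells and at 0.0130, 0.0193 and 0.0165 in KO (refed log2 -5.93). NR2F1, an orphan nuclear receptor, was at 99.1 FPKM in refed WT and 1.66 in refed KO (-5.23). CYP24A1, which inactivates vitamin D, was at 27.1 and 0.556 FPKM, and ARHGAP29, a GTPase-activating protein, at 30.9 and 1.17. SEMA3A, a secreted guidance factor, was at 9.28 and 0.227 FPKM, and SERPINA5, a protease inhibitor, at 8.74 and 0.462. For all 6 genes the lowest WT column lay above the highest KO column. STMN2, a microtubule regulator of neurons, was at 17.2 FPKM in refed WT and was listed at 0 in refed KO. EEF1A1, the abundant translation elongation factor, was listed at 3742 FPKM in refed WT and at 0 in the other 5 columns. All cells use this gene, so a listed 0 may be a failed estimate, and no ratio is given for it.

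**Figure D2:**
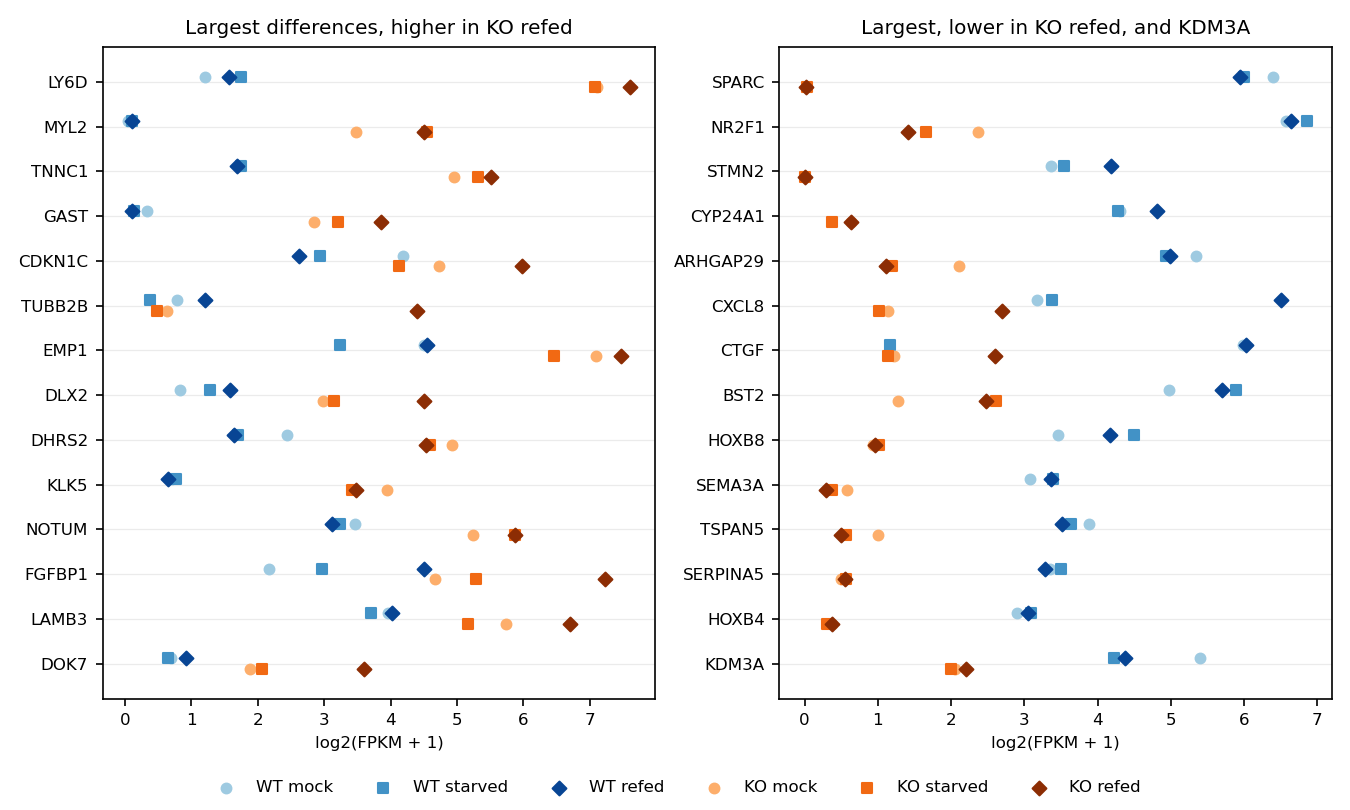
Log2(FPKM + 1) of genes among the largest differences higher in refed KO (left) and lower in refed KO, with KDM3A (right), with 1 point per column; blue is WT, orange KO, and circles, squares and diamonds are mock, starved and refed. In most rows the 3 blue points and the 3 orange points are apart in every state, while CDKN1C and TUBB2B stand out in the refed diamonds. For CTGF the genotypes are apart in mock and refed cells and nearly equal in starved cells.

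Genes present in 1 refed column only were few. With 1 FPKM or more in one column and under 0.1 in the other, 74 features were found in KO and 61 in WT, of which 61 and 38 were short RNAs. The named ones of KO were led by MYL2 and GAST (gastrin, at 0.0823 FPKM in refed WT and 13.4 in refed KO) and included STXBP6 at 0.0368 and 4.05 and the claudin CLDN9 at 0.0529 and 2.37. Among those of WT, GAP43, a growth-cone protein, was at 5.18 FPKM in refed WT and listed at 0 in refed KO, BASP1 was at 4 and listed at 0, and SNAP25, a synaptic fusion protein, was at 3.58 and 0.0442. STXBP6, CLDN9, GAP43, BASP1 and SNAP25 were named after their values were seen. Of 10 neuron and hepatocyte markers, 4 were measured, of which STMN2 was lower and none higher. Their summed level was 92.0 FPKM in refed WT and 131.6 in refed KO, most of it TUBB3, a neuronal beta-tubulin (68.8 and 125).

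The differences were compared with those in mock and starved cells, which share no column with the refed comparison. Of the 459 genes higher in refed KO, 252 were also 2-fold higher in starved cells (54.9% of the refed list and 72.4% of the 348 starved genes, which are 2.73% of those measured there). In mock cells 201 were also higher (43.8% of the refed list and 65.9% of 305, or 2.35% of those measured). Of the 203 lower genes, 113 were also lower in starved cells (55.7%, and 57.7% of 196, or 1.54% of those measured) and 108 in mock cells (53.2%, and 24.9% of 433, or 3.33%). Across mock, starved and refed cells alike, 171 genes were higher and 81 lower, or 162 and 80 without short RNAs. In refed cells alone 177 higher features (38.6%) and 63 lower features (31.0%) passed 2-fold, with short RNAs and the mock columns included. Short RNAs were 87 of the 459 and 54 of the 203 but few of those shared by all 3 states. How many of the 177 and 63 were short RNAs was not counted, so these shares are not shares of ordinary genes.

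The study's interest in YAP put CTGF first among the serum-responsive genes. CTGF (CCN2), a matricellular protein, was at 62.3, 1.24 and 64.0 FPKM in WT mock, starved and refed cells and at 1.34, 1.20 and 5.09 in KO. The starved columns were nearly equal (log2 -0.03), and the refed KO level was 7.96% of WT (log2 -3.41). CYR61 (CCN1), its close relative, was at 7.66 FPKM starved and 444 refed in WT and at 16.6 and 309 in KO, so its refed log2 ratio was -0.52. AMOTL2, a YAP-binding angiomotin, had the higher KO value in all 3 states, with 14.6 and 24.4 FPKM in refed WT and KO cells. In WT, ANKRD1 levels were 34.2 FPKM in mock, 0.00613 in starved and 0.169 in refed cells, and the KO levels were 0.0528, 0.0800 and 0.168. It was thus under 1 FPKM in both refed columns and high in WT mock alone, the column with the endothelial genes, whose part in that level was not tested. CTGF and ANKRD1 are shown as sequence because their start-site regions carry the TEAD motif CATTCC (searched on both strands), which 11.9% of 35116 RefSeq promoter entries of the same window hold at least once and 0.0826% hold 3 or more times. In the 250 bases upstream of the start in RefSeq (GRCh38.p14), CTGF has 3 matches and ANKRD1 has 2. The stretches below lie on the minus strand at chr6:131951452-131951551 (from 179 to 80 bases upstream) and chr10:90921200-90921317 (from 230 to 113 bases upstream), are written 5′ to 3′ on the gene's strand, and have the motif or its reverse complement in capitals.
CTGF: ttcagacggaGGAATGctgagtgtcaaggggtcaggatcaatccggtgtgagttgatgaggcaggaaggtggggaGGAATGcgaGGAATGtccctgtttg
ANKRD1: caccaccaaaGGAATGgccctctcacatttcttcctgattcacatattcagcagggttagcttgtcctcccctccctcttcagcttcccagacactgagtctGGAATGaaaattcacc
With the same motif these 2 genes had unlike refed values, 64.0 against 5.09 FPKM for CTGF and under 1 FPKM in both columns for ANKRD1. A match of letters is a description of the sequence and does not show that TEAD binds there in these cells.

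The YAP/TEAD target list as a whole did not follow CTGF. Counts of list members here and below stand against 3.61% of all genes higher and 1.6% lower. A member under 1 FPKM in one refed column was counted only through its level in the other column. Of 20 measured members 1 was 2-fold higher and 1 (CTGF) 2-fold lower, and the median log2 ratio was 0.14 against 0.24 for all genes. WTIP, a LIM-domain scaffold of cell junctions, was the higher one, at 2.33 FPKM in refed WT and 7.25 in refed KO. AJUBA, a related LIM protein that binds LATS kinases, was at 2.64 and 6.23 FPKM, the receptor kinase gene AXL at 5.57 and 9.45, and NT5E, the ectonucleotidase CD73, at 3.36 and 1.49. Of the 15 members with a promoter entry in the RefSeq table, 4 had the TEAD motif. Among 23 Hippo pathway components, 1 was lower and none higher, with a median of 0.21. The lower one was WWTR1, which encodes the YAP paralog TAZ, at 11.8 FPKM in refed WT and 5.16 in refed KO (log2 -1.06). YAP1, named after its values were seen, was at 11.3 and 14.5 FPKM, and VGLL4, a competitor of YAP for TEAD, at 14.7 and 28.1.

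Immediate early genes, which serum induces without new protein synthesis, differed in both directions. Of 26 measured, 5 were 2-fold lower and 1 higher in refed KO, against 1.6% lower and 3.61% higher of all genes, with a median log2 ratio of -0.09 (0.24 for all genes) and 10 members above the all-gene median. EGR1, a zinc-finger factor induced by ERK and SRF, was at 26.9 FPKM starved and 147 refed in WT and at 11.1 and 46.2 in KO (refed log2 -1.65). EGR2 was at 1.12 FPKM starved and 28.9 refed in WT and at 0.713 and 9.73 in KO (-1.48). KLF6, a Krüppel-like factor, was at 13.6 and 78.8 FPKM in WT and at 10.7 and 27.4 in KO (-1.49). JUN, an AP-1 subunit, had nearly equal starved columns, 8.19 FPKM in WT and 8.84 in KO, and refed columns of 82.6 and 38.1 (-1.10). MCL1, a short-lived survival protein, was at 111 and 51.6 FPKM in refed cells (-1.08). EGR3, just under the limit, was at 31.2 and 16.2 FPKM (-0.91) and passed 2-fold lower once the columns were rescaled. In each of these 6 genes the refed column was above the starved one in both genotypes, and the refed KO column was the lower of the refed pair. KLF4, an epithelial differentiation factor, went the other way, with 4.21 FPKM starved and 25.1 refed in WT and 24.6 and 85.5 in KO (1.73). Other members had close refed columns: FOS, a partner of JUN, was at 51.2 and 55.7 FPKM, the stress factor gene ATF3 at 244 and 223, and MYC at 146 and 139. These 3 were named after their values were seen.

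The neighbouring serum pathways were mixed as well. Of 15 ERK feedback genes 2 were higher and 1 lower, with a median of 0.14. EPHA2, an ephrin receptor, was at 50.1 FPKM in refed WT and 169 in refed KO (log2 1.74), and the ERK phosphatase gene DUSP4 at 59.9 and 111. SPRY4, an inhibitor of receptor kinase signalling, was at 27.4 and 12.6 FPKM (-1.07). The 17 SRF/MRTF cytoskeletal genes had a median of -0.06, 1 higher member and none lower. SRF itself was at 10.1 FPKM starved and 73.0 refed in WT and at 13.3 and 50.8 in KO, and the higher member was TAGLN (13.5 and 28.4). In the EGF receptor family, 1 of 9 was lower and none higher: ERRFI1, a feedback inhibitor of EGFR, was at 490 and 150 FPKM (-1.71). The ligand gene AREG was at 297 and 578 FPKM, so inhibitor and ligand differed in opposite directions.

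NF-kB and chemokine genes had the lowest median of the 47 lists. Of 13 measured, 4 were 2-fold lower and none higher (1.6% of all genes were lower), and the median was -0.47. CXCL8 (interleukin-8), the neutrophil chemoattractant, was at 7.99, 9.37 and 89.8 FPKM in WT mock, starved and refed cells and at 1.20, 1.03 and 5.50 in KO (refed log2 -3.80). The refed KO value of CXCL8 thus lay under all 3 WT values. CXCL1, a related chemokine, was at 8.33 and 2.26 FPKM in refed WT and refed KO, LIF, a cytokine of the interleukin-6 family, at 64.3 and 31.5, and TNFAIP3 (A20), an inhibitor of NF-kB, at 6.28 and 2.63. CXCL16 was the one member above the all-gene median, at 23.8 and 44.0 FPKM.

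**Figure D3:**
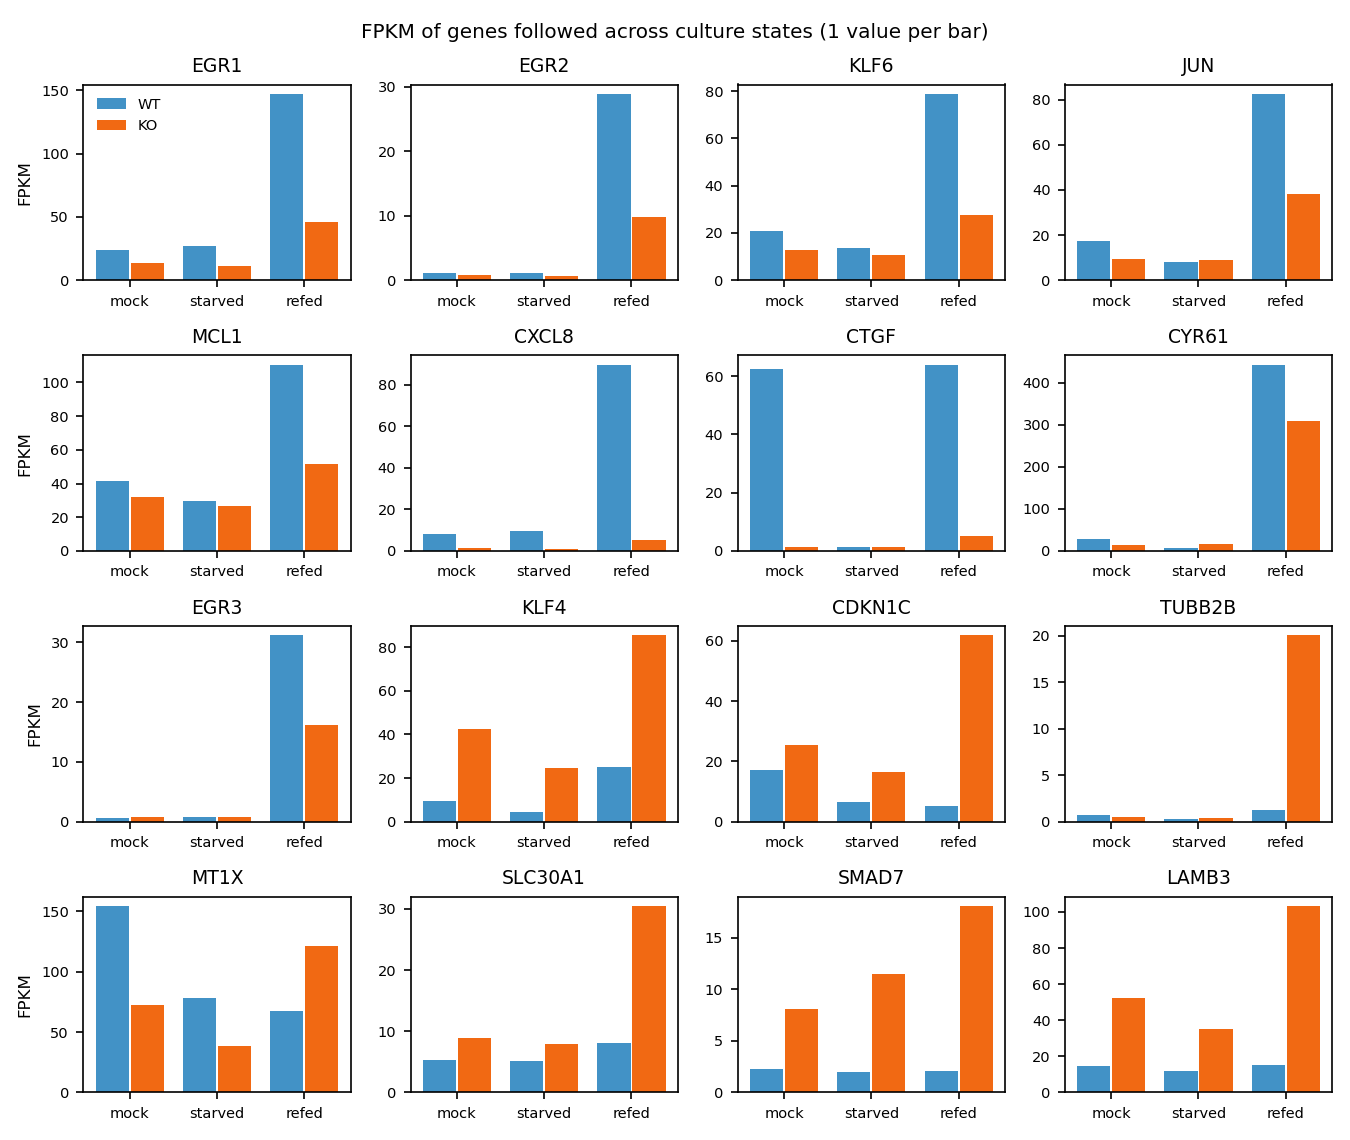
FPKM (y axis, from 0, scaled separately per gene) in mock, starved and refed cells, with 1 deposited value per bar, WT in blue and KO in orange. EGR1, EGR2, KLF6, JUN, MCL1, EGR3, CXCL8, CTGF and CYR61 have the taller refed bar in WT, and KLF4, CDKN1C, TUBB2B, MT1X, SLC30A1, SMAD7 and LAMB3 have the taller refed bar in KO.

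To single out differences that were larger in refed cells than in the other states, the refed log2 ratio was required to exceed both the mock and the starved ratio by at least 1 in the same direction. This held for 80 features toward KO (0.629% of 12711), of which 65 were short RNAs, and for 53 toward WT (0.417%), of which 47 were short RNAs. Without the mock columns, and so against starved cells alone, the counts were 130 and 94. TUBB2B, a beta-tubulin, was at 0.727, 0.307 and 1.30 FPKM in WT mock, starved and refed cells and at 0.55, 0.392 and 20.1 in KO, so the refed KO column alone was high. RHOV, an atypical small GTPase, was at 14.1, 8.94 and 5.18 FPKM in WT and at 8.25, 5.39 and 25.9 in KO, higher in WT in mock and starved cells and higher in KO in refed cells. CDKN1C (p57), an inhibitor of cyclin-dependent kinases, was at 17.2, 6.65 and 5.16 FPKM in WT and at 25.5, 16.4 and 61.9 in KO. In WT its refed column was the lowest of the 3 and in KO it was the highest. DOK7, an adaptor of the muscle receptor MuSK, was at 0.891 and 11.1 FPKM in the refed columns, and RNF223, a RING-finger gene, at 3.59 and 25.5. FOXC1, a forkhead factor, counted here for another reason: it was lower in KO in mock (25.4 and 6.43 FPKM) and starved cells (19.8 and 4.17) and closer to WT when refed (22.3 and 16.4). DDIT4, an inhibitor of mTORC1, had equal starved columns of 71.1 and 71.4 FPKM and refed columns of 93.4 and 278.

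On the WT side CXCL8 and EGR2 had the larger refed difference. KRTAP2-3, a keratin-associated protein gene, was higher in KO in mock and starved cells (0.516 and 3.12 FPKM starved) and close in refed cells (16 and 17.6). TUFT1 had the higher starved value in KO and the higher refed value in WT, at 3.28 and 5.22 FPKM starved and 21.2 and 14.4 refed. Set against starved cells alone, CTGF, CYR61, JUN and KLF6 joined this group. THBS1, the matrix glycoprotein thrombospondin-1 (named after its values were seen), was at 0.798 FPKM starved and 35.7 refed in WT and at 0.764 and 14 in KO. WT mock levels of CTGF and THBS1 were 62.3 and 175 FPKM, in the column that also held the endothelial genes, and these genes are expressed by endothelial cells too. The part of that column in their mock difference was not tested.

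**Figure D4:**
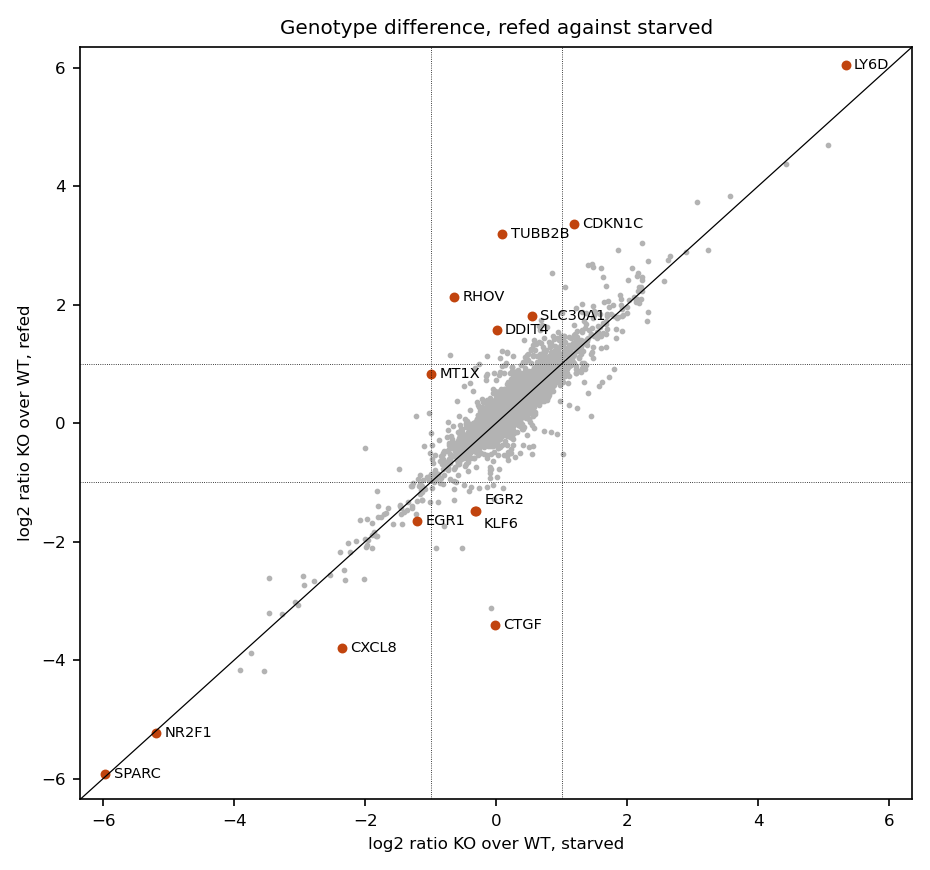
Log2 ratio of KO over WT in starved cells (x axis) and in refed cells (y axis) for genes at 5 FPKM or more in a refed column, without short RNAs and EEF1A1; the solid line is equality, dotted lines are 2-fold, and named genes are in colour. LY6D, SPARC and NR2F1 lie near the line, TUBB2B, RHOV, CDKN1C and DDIT4 lie above it, and CTGF and CXCL8 lie under it.

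Metallothioneins and their regulators had 1 member past 2-fold. Metallothioneins are small cysteine-rich proteins that buffer zinc and copper, and the zinc-sensing factor MTF1 drives them together with the zinc exporter SLC30A1 (ZnT1). MT1X was at 154, 77.9 and 67.6 FPKM in WT mock, starved and refed cells and at 72.8, 38.6 and 121 in KO, lower in KO in the first 2 states and higher when refed (log2 0.83). MT1E was at 440 and 841 FPKM in refed WT and refed KO, MT1F at 9.64 and 17.8, and MT2A at 1514 and 1956. SLC30A1, the single member past 2-fold of 6 measured, was at 8.00 and 30.5 FPKM (1.81). The median of the list was 0.83 in refed cells, -0.02 in mock cells and -0.23 in starved cells, and MTF1 itself was at 2.44 and 2.54 FPKM. Metallothionein genes are close copies of one another, so their reads may have been divided unevenly among them. The metal response element core, TGCACNC or TGCGCNC on either strand, was present in 3 of the 4 members with a promoter entry, against 24.8% of all entries. MT2A, whose refed KO level was 1.29 times the WT level, had 7 matches in 250 bases and MT1X had 4. SLC30A1, whose refed difference was the largest of the list, had 1 (1.58% of entries have 3 or more). The stretches of MT1X and SLC30A1 are shown, at chr16:56682310-56682433 on the plus strand (from 160 to 37 bases upstream) and chr1:211579194-211579220 on the minus strand (from 59 to 33 bases upstream) of GRCh38.p14, from RefSeq, 5′ to 3′ on the gene's strand with the matches in capitals.
MT1X: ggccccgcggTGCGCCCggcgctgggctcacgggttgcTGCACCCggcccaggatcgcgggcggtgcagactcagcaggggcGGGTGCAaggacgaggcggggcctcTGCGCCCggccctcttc
SLC30A1: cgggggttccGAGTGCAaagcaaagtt
The matches say only that these letters lie in the window; binding of MTF1 was not measured.

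Keratins, the intermediate filaments of epithelia, had the highest median of the 47 lists. Of 19 keratins 14 were measured, of which 10 were 2-fold higher in refed KO and none lower, with a median log2 ratio of 1.31. Some of the 14, KRT14 and KRT16 among them, were under 1 FPKM in refed WT and were counted only through their KO level. Relative to all genes the list median was 1.08, and it was 1.11 without the 1 FPKM minimum. The simple-epithelial pair KRT8 and KRT18 was at 1148 and 495 FPKM in refed WT and 2776 and 1212 in refed KO. KRT14, the filament of basal cells in stratified epithelium, was at 0.184 FPKM in refed WT and 5.51 in refed KO, KRT16 at 0.275 and 4.65, KRT13 at 3.10 and 11.6, and KRT15 at 7.40 and 32.5. KRT17, induced in wounded skin, was at 0.243 FPKM starved and 1.28 refed in WT and at 1.58 and 10.2 in KO. Close paralogs and processed pseudogenes make individual keratin values uncertain. Of 24 epithelial junction genes 3 were higher and 1 lower (median 0.56), among them PKP3, a desmosomal plakophilin (22.7 and 60.6 FPKM), and the claudin CLDN3 (25.3 and 52.1). CDH1 (E-cadherin) was at 13.8 and 23.6 FPKM, under 2-fold. The leak-forming claudin CLDN2 was the lower one, at 1.74 and 0.0602 FPKM.

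Among other genes of stratified epithelium and its basement membrane, some members were higher, while most stayed under 2-fold. LAMB3, a chain of laminin-332, was at 15.3 FPKM in refed WT and 103 in refed KO, and COL17A1, a hemidesmosomal collagen, at 1.07 and 3.63. Both belong to the 17 measured laminins and collagens, of which 3 were higher and none lower (median 0.67). Of 15 kallikreins 7 were measured, all 7 lay above the all-gene median and 3 were 2-fold higher. The 3 were KLK5 (0.575 and 10.1 FPKM), KLK10 (7.55 and 40.8) and KLK11 (0.183 and 3.30), secreted serine proteases of which several act in skin shedding. KLK5 and KLK11 were under 1 FPKM in refed WT and were counted only through their KO level. Without the 1 FPKM minimum the list median relative to all genes was 0.40 instead of 0.62. Of 12 S100 genes 4 were higher and 1 lower: S100P was at 0.738 and 5.33 FPKM, S100A10 at 63.9 and 160, and S100A1 at 11.1 and 2.61. LY6-domain genes had 2 higher of 11 (LY6D and LYPD3, the latter at 9.89 and 22.9 FPKM). Integrins, the receptors for these matrix proteins, had none of 8 past 2-fold, although ITGB4, the laminin-332 receptor subunit, was at 82.6 and 130 FPKM.

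Mesenchymal genes had 1 higher and 3 lower of 9 measured, with SNAI1 (5.68 FPKM in refed WT and 12.9 in refed KO) as the higher one and SPARC and VIM among the lower ones. VIM (vimentin) was low in both refed columns, at 1.29 FPKM in WT and 0.0212 in KO, in contrast to 153 FPKM in the WT mock column, which held the endothelial genes. Plasminogen activators and serpins had 2 higher and 1 lower of 10. PLAT, the tissue activator, was at 7.59 and 30.0 FPKM, SERPINB5 (maspin), an epithelial serpin, at 10.5 and 35.1, and the urokinase gene PLAU at 77.3 and 85.3.

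**Figure D5:**
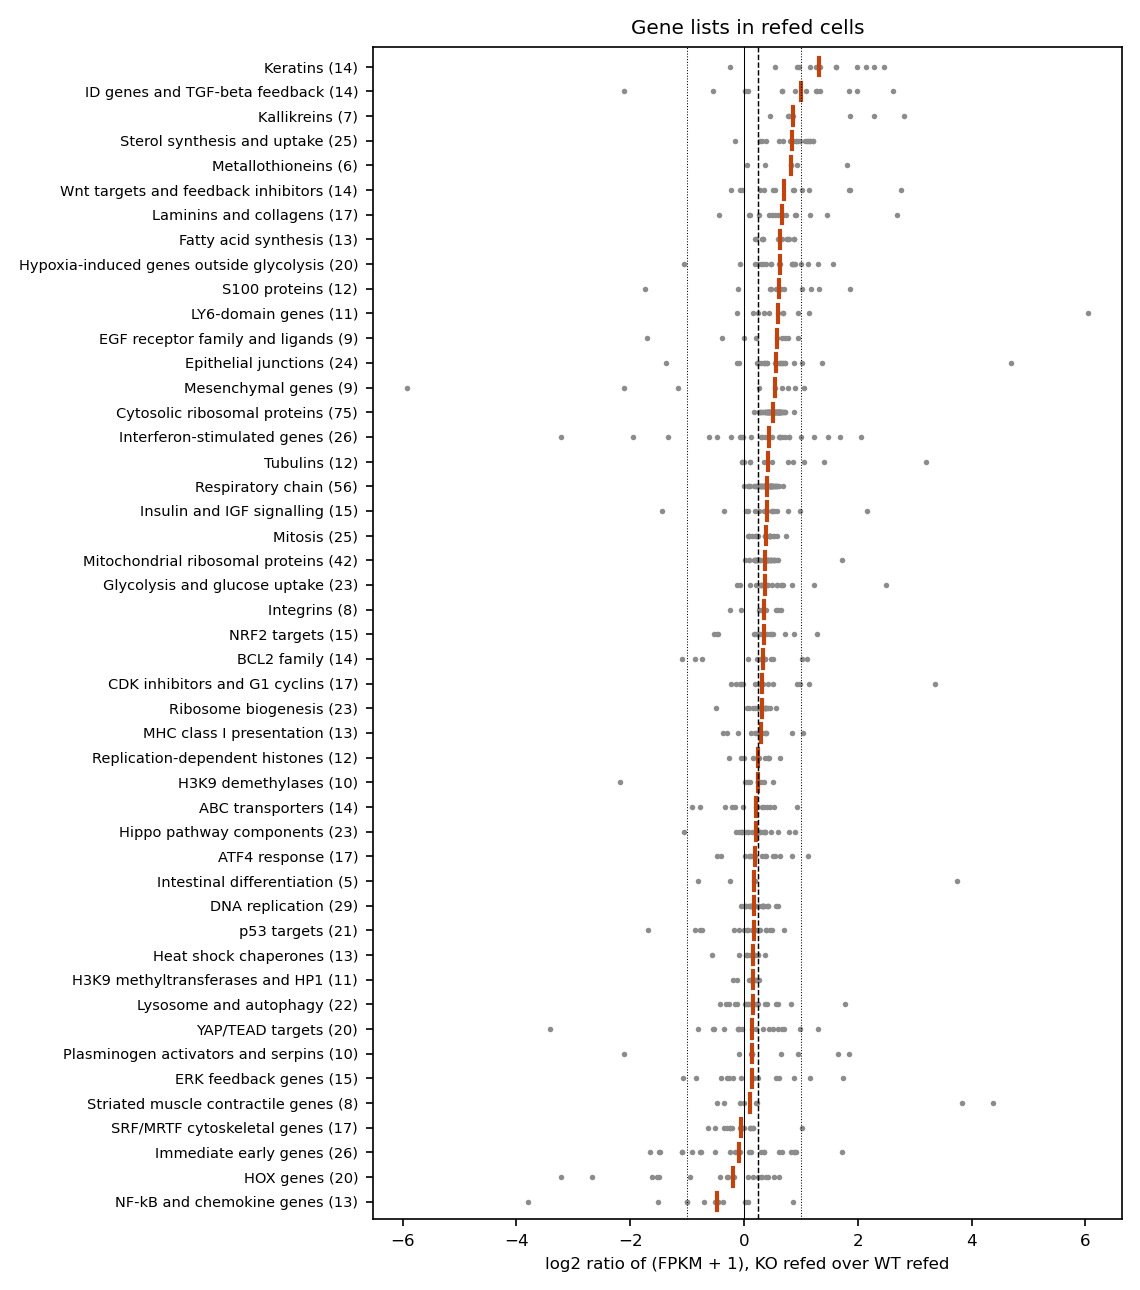
Log2 ratio of (FPKM + 1), refed KO over refed WT, for every measured member (grey points) of each gene list with its median (red bar) and number of measured members; the dashed line is the median of all genes, 0.24, and dotted lines are 2-fold. Keratins lie at the top with a median of 1.31 and NF-kB and chemokine genes at the bottom with -0.47, and members of most lists lie between the dotted lines.

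Feedback genes of the BMP, TGF-beta and Wnt pathways differed in part of their members. Of 14 ID genes and TGF-beta feedback genes 7 were higher and 1 lower, with a median of 0.998. SMAD7, the inhibitory SMAD that blocks TGF-beta receptors, was at 2.22, 1.97 and 2.09 FPKM in WT mock, starved and refed cells and at 8.06, 11.5 and 18.1 in KO (refed log2 2.62). SMAD6, its BMP counterpart, was at 3.57 and 15.3 FPKM in the refed columns, BAMBI, a decoy receptor, at 3.11 and 15.2, and ID1, a helix-loop-helix inhibitor induced by BMP, at 429 and 1045. For these 4 genes the 3 WT columns lay below the 3 KO columns. Of 14 Wnt targets and feedback inhibitors 5 were higher and none lower (median 0.71). NOTUM, which inactivates Wnt ligands, was at 7.68 and 57.5 FPKM, AXIN2, a scaffold of the β-catenin destruction complex, at 1.17 and 6.90, ZNRF3, a ligase that removes Wnt receptors, at 1.94 and 9.51, and CCND1 (cyclin D1) at 52.1 and 116.

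Most sterol genes lay above the all-gene median. Of 25 measured genes of sterol synthesis and uptake, 7 were 2-fold higher and none lower, the median was 0.85, and 24 lay above the all-gene median. HMGCS1, which makes HMG-CoA, was at 32.4 FPKM in refed WT and 71.3 in refed KO, MVD at 71.2 and 156, LSS, the lanosterol synthase, at 21.4 and 50.6, and ACAT2 at 27.5 and 65.0. INSIG1, which retains the SREBP activators in the endoplasmic reticulum, was at 54.7 and 124 FPKM. After either rescaling, ACAT2, LSS, INSIG1, MVD and HMGCS1 lay under 2-fold. The list's median was 0.94 in mock and 0.88 in starved cells. Of 13 fatty acid synthesis genes none passed 2-fold in either direction (median 0.63), with FASN at 102 and 189 FPKM and SCD at 187 and 298.

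Glucose and oxygen-related genes were led by SLC2A1. SLC2A1 (GLUT1) was at 84.4, 46.8 and 48.4 FPKM in WT mock, starved and refed cells and at 317, 211 and 276 in KO (refed log2 2.49). SLC2A3 (GLUT3) was at 2.57 and 7.35 FPKM in the refed columns, and these were the 2 higher members of 23 glycolysis genes, none of which was lower (median 0.37). LDHA, at 465 and 745 FPKM, and ALDOA, at 802 and 1278, stayed under 2-fold. Of 20 hypoxia-induced genes outside glycolysis 4 were higher and 1 lower, against 3.61% and 1.6% of all genes (median 0.62). P4HA1, a collagen prolyl hydroxylase, was at 28.6 and 71.9 FPKM and DDIT4 at 93.4 and 278, whereas the carbonic anhydrase gene CA9 was lower, at 3.46 and 1.16. The related enzyme CA12 was at 1.27 and 3.94 FPKM.

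Growth-control genes showed few differences outside single members. None of 29 DNA replication genes (median 0.18) and none of 25 mitosis genes (0.38) passed 2-fold in either direction, with CDC6 at 17.5 FPKM in refed WT and 27.0 in refed KO and CDC20 at 65.8 and 111. CDKN1C and CCND1 were the 2 higher of 17 CDK inhibitors and G1 cyclins. Of 21 p53 targets 1 was lower and none higher: GDF15, a stress-induced cytokine, was at 377 and 116 FPKM (log2 -1.69), and BAX, a pore-forming death effector, at 72.5 and 39.2. In the BCL2 family BIK (30.2 and 66.4 FPKM) and BCL2L1 (34.9 and 71.4) were higher and MCL1 lower, of 14. After either rescaling BIK and BCL2L1 lay under 2-fold. In insulin and IGF signalling, IRS1, a receptor substrate, was at 14.7 and 4.81 FPKM and its relative IRS2 at 2.54 and 6.01, while IGFBP6, which binds IGF2, was at 45.3 and 206. Of those 15 genes 1 was higher and 1 lower at 2-fold. Tubulins had 3 of 12 higher, TUBB2B, TUBA4A (26.1 and 71.1 FPKM) and TUBB2A (18.2 and 39.0), and none lower; TUBB2A and TUBB2B are near-identical and may share reads.

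Interferon-stimulated genes differed in both directions: of 26 measured 5 were higher and 3 lower, against 3.61% and 1.6% of all genes (median 0.43). IFI27 was at 73.5 FPKM in refed WT and 307 in refed KO, IFI6 at 261 and 846, and IRF7, a regulator of interferon genes, at 21.8 and 62.6. BST2 (tetherin), a restriction factor at the cell surface, was at 50.8 and 4.55 FPKM (log2 -3.22), IFITM1 at 64.3 and 15.8 and IFIT2 at 6.37 and 1.92. MHC class I presentation had 1 of 13 higher, HLA-F (22.3 and 46.8 FPKM), and none lower. The gene order of RefSeq (GRCh38.p14) was used to find runs of at least 3 measured protein-coding neighbours that all passed 2-fold in the same direction, and 9 runs were found. The longest was KRT13, KRT15, KRT19, KRT14, KRT16 and KRT17, all higher. HOXB3 to HOXB6 were lower as a run: HOXB4, for example, was at 7.32 FPKM in refed WT and 0.303 in refed KO, and HOXB5 at 8.92 and 2.24. HOXB8, outside the run, was at 17.0 and 0.941 FPKM, and these 5 were the lower members of 20 HOX genes, none of which was higher (median -0.18). TES, CAV2 and CAV1 were higher together (CAV1, the caveolin, at 44.1 and 165 FPKM), as were CYP4F3, CYP4F12 and CYP4F11, which are close paralogs. The natural killer receptor genes KLRC4, KLRC3, KLRC2 and KLRK1 and their read-through gene were lower together, with KLRK1 at 8.95 and 0.585 FPKM; these genes overlap or are near-copies, so their values are not independent. Higher runs also included C1orf116, PFKFB2, YOD1 and CD55, then ZNRF3, KREMEN1 and EMID1, and CD47, IFT57 and MYH15. CD47, the surface signal that restrains macrophages, was at 6.48 and 34.2 FPKM.

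The remaining lists contained 1 differing gene at most. HMOX1 (heme oxygenase), at 9.09 FPKM in refed WT and 23.5 in refed KO, was the higher one of 15 NRF2 targets, CEBPB (27.4 and 60.9) of 17 ATF4 response genes, CD68 (4.30 and 17.1) of 22 lysosome and autophagy genes, MRPS6 (40.9 and 138) of 42 mitochondrial ribosomal proteins, and GAST of 5 intestinal differentiation genes. No member was 2-fold lower in these 5 lists, and none passed in either direction among 13 heat shock chaperones, 14 ABC transporters, 12 histone genes, 56 respiratory chain genes and 23 ribosome biogenesis genes. Cytosolic ribosomal proteins also had none of 75 past 2-fold, but 74 of them lay above the all-gene median, with a list median of 0.52. The median of all genes rose with level, and the 735 genes above 100 FPKM in the higher column had a median of 0.40.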

How the data were processed

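Per the labels, polyadenylated RNA was isolated and sequenced. Per the submitters' processing notes, FastQC, cutadapt, TopHat2 and build hg19 were used. The FPKM values were computed by the authors and deposited as 1 column per group; the program, the annotation and the read depth are not given in the sources used here, so no counting interval is given. It is not known whether a column is a mean of its 2 samples. Here log2 ratios of (FPKM + 1) were taken with Python 3.11.15, numpy 2.4.6 and pandas 2.3.3, figures drawn with matplotlib 3.10.9, and the steps tested on simulated data. Named genes were KDM3A, CTGF, CYR61, ANKRD1, AMOTL2, in each direction the 15 largest differences among genes at 5 FPKM or more, the 8 largest refed-weighted ones, up to 6 members per list with the largest differences, and members of neighbour runs. The genes, 47 gene lists, 6 marker lists and rules were chosen with earlier results of these data known. Symbols were matched to RefSeq (25208 of 26372) for gene order and promoters. Tried as alternatives were a pseudocount of 0.1, a minimum of 5 FPKM, no minimum, median-ratio and upper-quartile rescaling, and leaving out short RNAs; leaving out genes listed at 0 or the mock columns was chosen after seeing the data. Some genes that these rules name are not reported here.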

Additional observations from a re-analysis of the deposited data

Results flagged for a closer look

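KRT7, a keratin of simple glandular epithelium, was lower in KO in mock cells and higher in the other states. Its levels were 25.2, 4.91 and 4.91 FPKM in WT mock, starved and refed cells and 7.89, 15.2 and 17.1 in KO, and its log2 ratios were -1.56, 1.46 and 1.61. TAGLN, an actin-binding protein of smooth muscle, was at 38.4, 3.84 and 13.5 FPKM in WT and at 7.36, 5.98 and 28.4 in KO, with log2 ratios of -2.24, 0.53 and 1.02. Both are here because their mock and refed differences have opposite signs. With 1 value per group the difference between states was not tested. Endothelial markers summed to 296.6 FPKM in WT mock and to between 50.4 and 93.3 in the other columns, and their part in the mock ratios was not tested.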

How the results depend on the processing

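No paired analysis was possible because the deposited columns carry no replicate numbers, and for the same reason no replicate could be left out. The count of genes higher in KO refed, 459, was 704 with a pseudocount of 0.1, 300 with median-ratio rescaling and 282 with upper-quartile rescaling. The count of lower genes, 203, was 119 with a minimum of 5 FPKM. Without short RNAs the counts were 372 higher and 149 lower. Genes lower in all 3 states, 81, were 122 with a pseudocount of 0.1 and 45 with a minimum of 5 FPKM, and genes higher in all 3, 171, were 111 after upper-quartile rescaling. The all-gene median of 0.24 was 0.0568 without a minimum, 0.0016 after median-ratio rescaling and -0.0384 after upper-quartile rescaling, which turns its sign. Against starved cells alone, without the mock columns, the refed-weighted counts of 80 and 53 were 130 and 94. List medians were compared relative to all genes. Without a minimum, the EGF receptor family turned to -0.0606 and mesenchymal genes to -0.0444; HOX genes moved from -0.42 to -1.23 with a minimum of 5 FPKM and to -0.07 without one, LY6-domain genes from 0.35 to 0.66 with a minimum of 5 FPKM, and metallothioneins from 0.59 to 0.31 without one; the causes were not tested. The median-ratio factor of KO over WT was 1.21 and the upper-quartile factor 1.25. No named gene past 2-fold changed direction under these alternatives, but 16 of 294 named genes turned from higher to lower in KO after median-ratio rescaling and 20 after upper-quartile rescaling, all with a log2 ratio of 0.29 or less as deposited (EHMT2, KDM1A, MTF1, PLAU and KRTAP2-3 among them). After median-ratio rescaling 24 of 294 gene results dropped under 2-fold and 7 passed it, and after upper-quartile rescaling 28 and 8. Among the genes called higher that dropped under 2-fold with both were BIK, BCL2L1, CCND1, HLA-F, CLDN3, SNAI1, TUBB2A, CEBPB and LYPD3. Depth is unknown, so differences at low FPKM have no known precision.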
